A study of Mus musculus with 4 samples.

Results

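DDX5, a DEAD-box RNA helicase, was mapped on chromatin of cultured mouse undifferentiated spermatogonia, a germline population of stem cells and their early progeny. Of the 101 deposited peaks, 5 are described here, each listed for a gene of traffic or transport at endosomes, the endoplasmic reticulum (ER) or the Golgi apparatus. These genes are called trafficking genes below, although *Slc35b2* encodes a solute transporter. The 5 peaks were the entries whose listed gene is *Fam21*, *Snx8*, *Vapa*, *Slc35b2* or *Aagab*, 1 peak for each gene. The experiment comprised 2 libraries of chromatin precipitated with DDX5 antibody and 2 input libraries that were not precipitated, all from wildtype cells of independently derived lines, grown on inactivated mouse embryonic fibroblasts in medium with GDNF, bFGF, EGF and insulin. No genotype, treatment or time point differed between the libraries, so the comparisons here are among peaks. The list gives 1 HOMER peak score for both ChIP libraries together, which carries no spread between the lines, and neither the depth of a library nor the reads behind a peak are known. The scores therefore describe and rank peaks, and no difference between scores could be tested. A peak list holds no expression values, so the identity of the cells could not be checked against marker genes.

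Cargo that enters a cell by endocytosis is sorted on endosomes, from which sorting nexins, the retromer coat and the actin-nucleating WASH complex return selected proteins to the Golgi or the cell surface. Clathrin adaptors select cargo for vesicles, ER contact sites tether the ER to other membranes, and solute carriers of the Golgi supply the donors from which glycans are built and sulfated. *Fam21* encodes the WASH complex subunit that anchors the complex to endosomes by binding retromer. *Snx8* encodes a sorting nexin of early endosomes. *Vapa* encodes an ER membrane protein that holds partner proteins at contact sites. *Slc35b2* encodes a Golgi transporter of the sulfate donor PAPS, and *Aagab* a chaperone for the assembly of clathrin adaptor complexes.

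The E-box is the palindrome CACGTG, to which basic helix-loop-helix leucine zipper factors such as USF, MYC and TFEB bind. It was present in the peaks of *Fam21*, *Snx8*, *Slc35b2* and *Vapa* and absent from the *Aagab* peak. The stretches that hold these sites are printed 5′ to 3′ on the strand of the gene, taken from GRCm38.p6, which has the coordinates of the mm10 build used for the list. Capitals mark CACGTG and the related hexamer CATGTG, which reads CACATG on the other strand.
Fam21, chr6:116207953-116208048, plus strand: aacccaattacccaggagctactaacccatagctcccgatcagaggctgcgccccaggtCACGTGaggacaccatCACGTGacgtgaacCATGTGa
Snx8 exon 1, chr5:140389236-140389265, minus strand: agtCACGTGggcgagcgggctCACATGact
Snx8 upstream, chr5:140389343-140389428, minus strand: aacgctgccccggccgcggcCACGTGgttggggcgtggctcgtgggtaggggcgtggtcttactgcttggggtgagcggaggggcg
Slc35b2, chr17:45564074-45564151, plus strand: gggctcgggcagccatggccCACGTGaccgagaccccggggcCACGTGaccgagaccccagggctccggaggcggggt
Vapa, chr17:65613539-65613568, minus strand: cgtagggcccgtCACGTGgggcgccgagga
The stretches were chosen because they show how each E-box lies to its transcription start site (TSS), and they are referred to with each gene.

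Of the 5 peaks, 4 covered a TSS of their own gene, but the list classed only the *Fam21* peak as promoter-TSS. HOMER assigns a peak to this class by its centre, which must fall no more than 1 kb before or 100 bp after a TSS. The *Snx8* and *Aagab* peaks were classed as intron and those of *Slc35b2* and *Vapa* as 5′ UTR. In the whole list, 31 of 101 peaks were promoter peaks, a background of 30.7%, against 1 of the 5 trafficking genes. Counting instead every centre within 1 kb of the listed TSS, the background was 36.6% (37 of 101) and 4 of the 5 passed. A reference TSS of the listed gene lay inside 36 of 101 peaks, or 35.6%, and again inside 4 of the 5. Of the 6 peaks that lay within 1 kb of a TSS without the promoter class, 3 belonged to these genes. The 2 peaks that the list classed as 5′ UTR were those of *Slc35b2* and *Vapa*. The 5 genes were chosen with earlier results of these data known, so these shares do not describe trafficking genes at large.

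The scores of the 5 peaks spanned a 2.54-fold range. *Fam21* scored 15.35 (rank 12 of 101), *Snx8* 15 (rank 14), *Slc35b2* 11.505 (rank 24), *Vapa* 8.005 (rank 42) and *Aagab* 6.04 (rank 62). The median of the list was 6.94, with a range from 4.77 to 41.9, so that 4 of the 5 lay above it and *Aagab* below. A score of at least 10 was reached by 3 of the 5, against 26.7% of the list (27 of 101). The median of the 5 was 11.505, the value that was also the median of the 37 peaks within 1 kb of a TSS. The other 33 of these had a median of 11.15, and the 55 peaks more than 10 kb away had a median of 5.995.

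**Figure D1:**
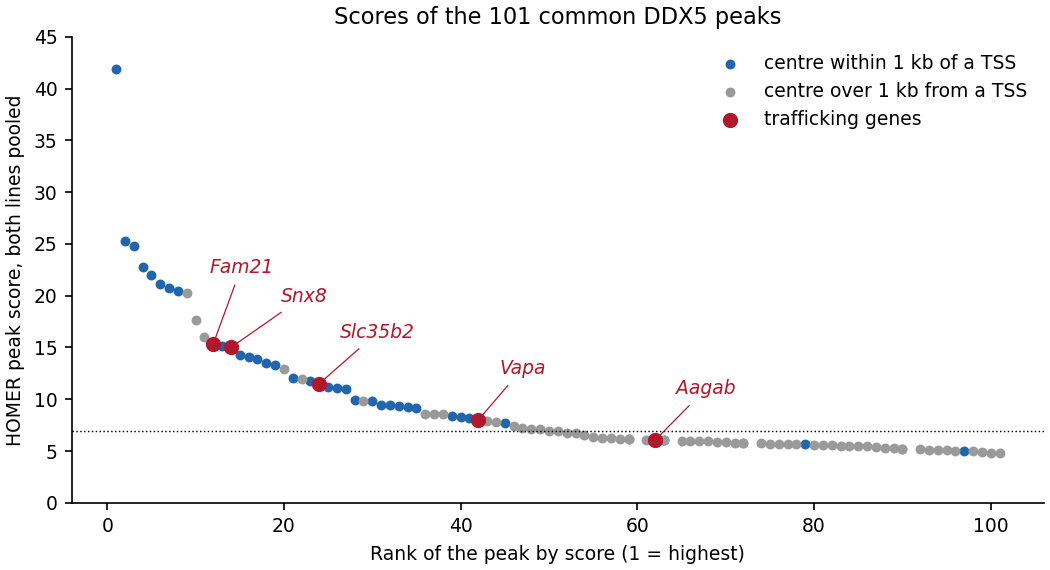
HOMER peak score (y axis, 1 value for both lines) against the rank of each peak (x axis) for the 101 common peaks, coloured by distance of the centre to the listed TSS, with the dotted line at the median score of 6.94. The peaks of *Fam21*, *Snx8*, *Slc35b2* and *Vapa* lie above the median and the *Aagab* peak below it, among peaks far from a TSS.

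Among the peaks without the promoter class, the *Snx8* score exceeded those of 22 of the 31 promoter peaks and the *Slc35b2* score those of 15, while the *Vapa* score exceeded those of 3. For comparison, the *Fam21* promoter peak scored above 23 and the *Aagab* peak above 2 of them. The median was 11.805 for promoter peaks and 9.845 for the 6 TSS-near peaks of other classes, which ranged from 5.02 to 22. Among the 37 TSS-near peaks alone, *Fam21* ranked 9, *Snx8* 11, *Slc35b2* 19 and *Vapa* 33.

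**Figure D2:**
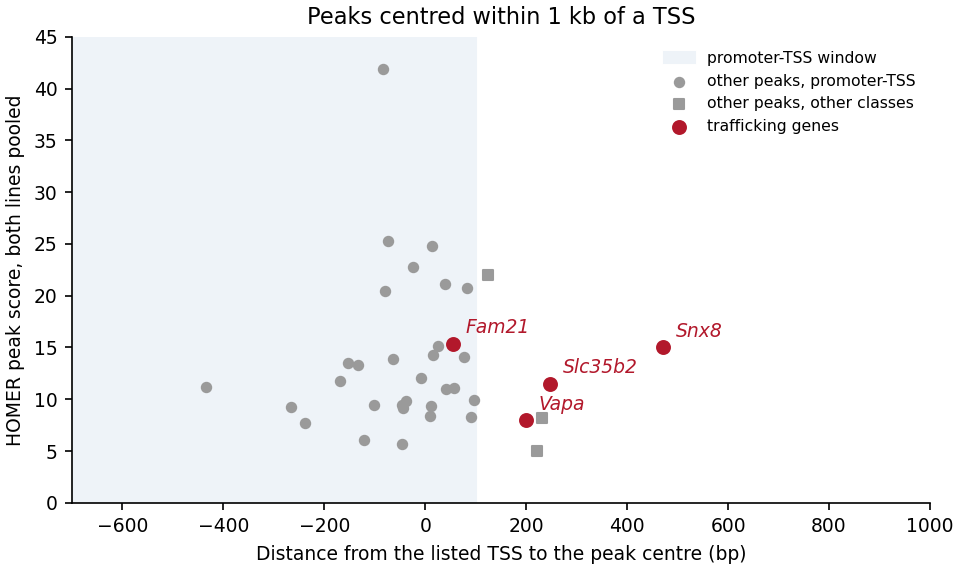
HOMER peak score (y axis) against the distance from the listed TSS to the peak centre in bp (x axis, positive downstream) for the 37 peaks centred within 1 kb of a TSS, with the shaded range marking the promoter-TSS window. *Snx8*, *Slc35b2* and *Vapa* lie to the right of that window at 472, 248 and 199 bp, at scores from 8.005 to 15, with the 3 other peaks outside the promoter class.

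Neighbours in the order of scores were close together. *Fam21* lay 0.65 below the intron peak of *Efna3*, which encodes an ephrin, and 0.2 above the promoter peak of *Wee1*, the kinase that restrains entry into mitosis. *Snx8* followed *Wee1* at a distance of 0.15 and stood 0.75 above *Mtdh*. *Slc35b2* ranked between the promoter peaks of *Rragc* (11.805), a Rag GTPase that recruits mTORC1 to lysosomes, and *Sppl3* (11.15), an intramembrane protease. *Vapa* ranked between *Mien1* (8.185) and *Mir6412* (7.86). *Aagab* ranked between 2 intergenic peaks, those of *Mug1* (6.1) and *Gm5617* (6.02). With no spread between the lines, none of these steps can be called a difference.

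Length changed the order. The *Snx8* peak was the longest of the 101, at 1549 bp, and that of *Slc35b2* the sixth longest, at 1157 bp, against a list median of 813 bp. The peaks of *Fam21*, *Vapa* and *Aagab* measured 774, 648 and 592 bp. Per kb of peak, *Fam21* scored 19.8 (rank 8) and *Vapa* 12.4 (rank 31), whereas *Snx8* and *Slc35b2* fell back to 9.68 (rank 56) and 9.94 (rank 54). Both lay below the lowest score per kb of the 31 promoter peaks, 10.4, while *Vapa* lay above it. The *Aagab* peak scored 10.2 per kb (rank 52). The median score per kb was 10.4 over the list and 14.7 over the other 33 TSS-near peaks, and of the 4 TSS-near trafficking genes only *Fam21* lay above the latter.

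The *Fam21* peak (chr6:116207701-116208474) lay over a pair of divergent transcripts. The gene is named *Washc2* in the reference, which was matched by its Entrez gene identifier. Its TSS (NM_026585.3) is at 116208033 on the plus strand, and the centre of the peak was 54 bp downstream, in the 5′ UTR in exon 1. The lncRNA *9530062K07Rik* (NR_131013.1) starts at 116207993 on the minus strand, with 39 bases between both TSSs, and this TSS lay in the peak too. Because a peak carries no strand, its signal cannot be assigned to one of these genes rather than the other.

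In the printed *Fam21* stretch, a CCAAT box centred 75 bp upstream of the *Fam21* TSS lies beyond the lncRNA start. The E-boxes follow at 18.5 and 2.5 bp upstream of the *Fam21* TSS, measured from the middle of each site, and a CATGTG site 11.5 bp downstream. The first E-box thus lies between both TSSs, and the last base of the second one is the TSS of NM_026585.3 itself. This exact place depends on the transcript. Predicted transcripts of the gene start at 116208019, before the second E-box, and the starts that GENCODE vM21 gives inside the peak run from 116208038 to 116208206. The E-boxes start 16 bp apart and share 8 identical bases, tCACGTGa. This was the only one of the 5 peaks with an E-box in its central 200 bp, and the only one with the extended E-box TCACGTGA.

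The *Snx8* peak (chr5:140388001-140389549) reached over exon 1 deep into intron 1. *Snx8* is on the minus strand, its curated transcript (NM_172277.3) starts at 140389308, and exon 1 ends at 140389148. The peak centre lay 472 bp downstream of the listed TSS and 533 bp downstream of this reference TSS, in intron 1 in both annotations. The peak extended 302 bp upstream and 1246 bp downstream of the listed TSS. Among the 40 intron peaks of the list, 33 were more than 10 kb from a TSS and only 2 within 1 kb, one of them that of *Snx8*.

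The E-boxes of *Snx8* lay at the upstream end of its peak, far from the centre. One is in the 5′ UTR of exon 1, 48.5 bp downstream of the reference TSS and 12.5 bp upstream of the listed one, and the other 97.5 bp upstream of the reference TSS. The nearer of them to the centre was 484.5 bp away. In the printed exon 1 stretch, the ATG of the CACATG site is the start codon, since the coding sequence begins at 140389241. Another 2 CATGTG sites lie in intron 1, 344.5 and 436.5 bp downstream of the listed TSS. In the upstream stretch the E-box has other flanks (gcCACGTGgt) than in exon 1 (gtCACGTGgg), and identity between both sites extends over only 7 bases.

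The *Slc35b2* peak (chr17:45563822-45564978) held the TSS of all 8 transcripts that GENCODE vM21 gives for the gene. The list placed its centre 248 bp downstream of a TSS at 45564152, in the 5′ UTR in exon 1 of NM_028662. That transcript is not in the reference used here, in which the curated transcript (NM_001357105.1) starts at 45563936. Exon 1 of this transcript ends at 45564068, so the centre falls in intron 1, 464 bp from the TSS. The class of this peak thus depended on the transcript model, while its place over the start of the gene did not. *Nfkbie*, an inhibitor of NF-kappaB, ends 653 bp before the peak, and *Hsp90ab1*, a constitutive HSP90 chaperone, lies 2800 bp beyond it.

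The *Slc35b2* sites form a repeat. The E-boxes start 22 bp apart, and 18 bases are identical in both copies, cCACGTGaccgagacccc. They lie 55.5 and 33.5 bp upstream of the listed TSS, but 160.5 and 182.5 bp downstream of the reference TSS, in intron 1. A CATGTG site follows 66.5 bp downstream of the listed TSS. The nearest E-box was 281.5 bp from the centre of the peak.

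The *Vapa* peak (chr17:65613033-65613680) lay over the single curated start of the gene. *Vapa* is on the minus strand, its listed and reference TSS (NM_013933.3) are both at 65613555, and the centre was 199 bp downstream, in the 5′ UTR in exon 1. One predicted transcript (XM_017317500.2) starts at 65616462, outside the peak. The single E-box covers the TSS, with its middle 1.5 bp downstream. It was 197.5 bp from the centre, and the peak reached only 125 bp upstream of the TSS. The GC content of this peak was 76.9%, the second highest of the list, against medians of 64.1% in the other TSS-near peaks and 51.7% in all peaks. The values of the *Slc35b2*, *Fam21* and *Snx8* peaks were 67.1%, 60.7% and 57.3%.

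**Figure D3:**
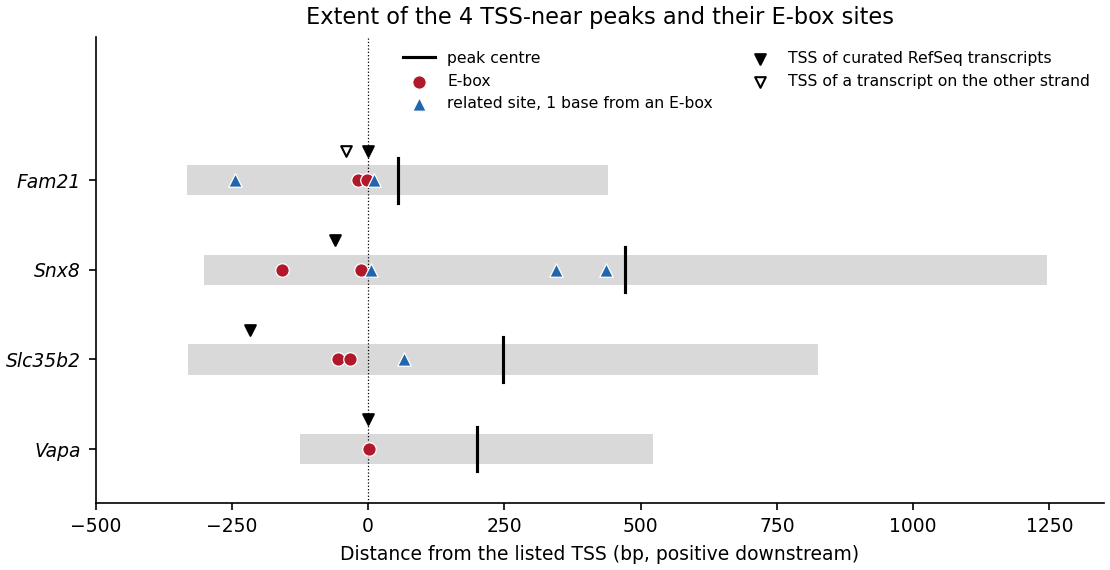
Extent of the 4 TSS-near peaks (grey bars) in bp from the listed TSS (x axis, positive downstream), with E-boxes as circles, CATGTG sites as triangles, the peak centre as a black bar and reference TSSs as arrowheads above. In all 4 genes the bar reaches further downstream than upstream, and an E-box lies within 33.5 bp of the listed TSS while the centre lies 54 to 472 bp downstream.

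The *Aagab* peak (chr9:63658409-63659000) differed from the others in its place. Its centre was 56049 bp downstream of the listed *Aagab* TSS, and the peak starts 13819 bp past the end of the gene. It lay in intron 5 of *Smad3* (NM_016769.4), which encodes a signal transducer of TGF-beta and activin receptors, as the list itself states in its annotation column. The curated RefSeq TSS of *Smad3* is 99290 bp away, further than that of *Aagab*, and HOMER names the gene with the nearest TSS of its annotation. Predicted *Smad3* transcripts start 8196 bp (XM_006510821.4) and 53555 bp (XM_006510819.3) from the centre. In GENCODE vM21, protein-coding *Smad3* transcripts start 7843, 53265, 92373 and 99290 bp away and the protein-coding *Aagab* transcript 56044 bp. By that annotation a *Smad3* start is nearer than any *Aagab* start, but no TSS of either gene lay in the peak. The name *Aagab* is thus an assignment by distance in the annotation of the list, and the peak holds no sequence of that gene.

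The *Aagab* peak had the lowest score of the 5 and none of the E-box, CATGTG or GC box (GGGCGG) sequences searched, with 1 CCAAT box. Adding 250 bp at either end brought in no E-box. Its GC content was 52.9%, and its ratio of observed to expected CpG was 0.294, against 0.58 to 0.909 in the other 4 peaks. Both values were near the medians of the whole list, 51.7% and 0.326. The medians of the 55 peaks more than 10 kb away were 46.4% and 0.227. In its distance the *Aagab* peak was like the 31 peaks of the list that lay more than 50 kb from their TSS.

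**Figure D4:**
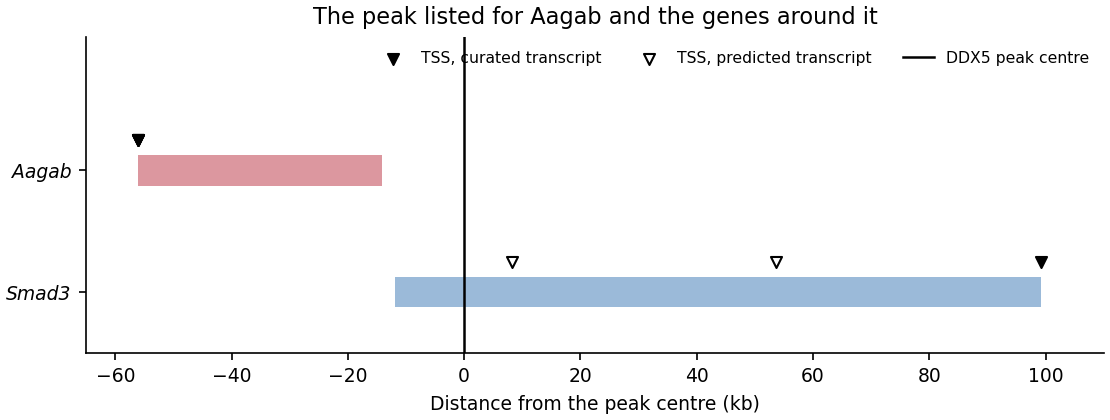
The *Aagab* and *Smad3* genes (bars) in kb from the centre of the peak listed for *Aagab* (vertical line), with filled arrowheads for the TSS of curated and open arrowheads for those of predicted transcripts. The line crosses the *Smad3* bar and lies beyond the end of the *Aagab* bar, 56049 bp from the listed *Aagab* TSS.

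The 4 TSS-near peaks reached further downstream than upstream of the listed TSS. They extended 125 to 332 bp upstream (median 316) and 441 to 1246 bp downstream (median 674). Of the other 33 TSS-near peaks, 15 reached further downstream, with medians of 434 bp upstream and 408 bp downstream. The centres of *Snx8*, *Slc35b2* and *Vapa* lay more than 100 bp downstream, which is the limit of the promoter class and so restates their class. A peak with its centre downstream reaches further downstream, so the reach of these peaks restates their class too.

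The E-boxes lay closer to the listed TSS than to the peak centre. The nearest E-box was 1.5 to 33.5 bp from the listed TSS in the 4 peaks (median 7.5) and 56.5 to 484.5 bp from the centre (median 239.5). From the curated reference TSS the nearest E-box was 48.5 bp away in *Snx8* and 160.5 bp in *Slc35b2*, still closer than the centre. In the 32 other TSS-near peaks with an E-box, the medians were 19 bp from the TSS and 53 bp from the centre. In 20 of these 32 an E-box was likewise closer to the TSS, and in 25 one lay within 100 bp of the TSS. An E-box lay within 100 bp of the centre in 28 of these 32 and, of the 4, in *Fam21* alone. For *Snx8*, *Slc35b2* and *Vapa* this follows in part from lacking the promoter class, since their centres lie more than 100 bp downstream. These distances are a description, and no test of the difference between both sets was made.

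**Figure D5:**
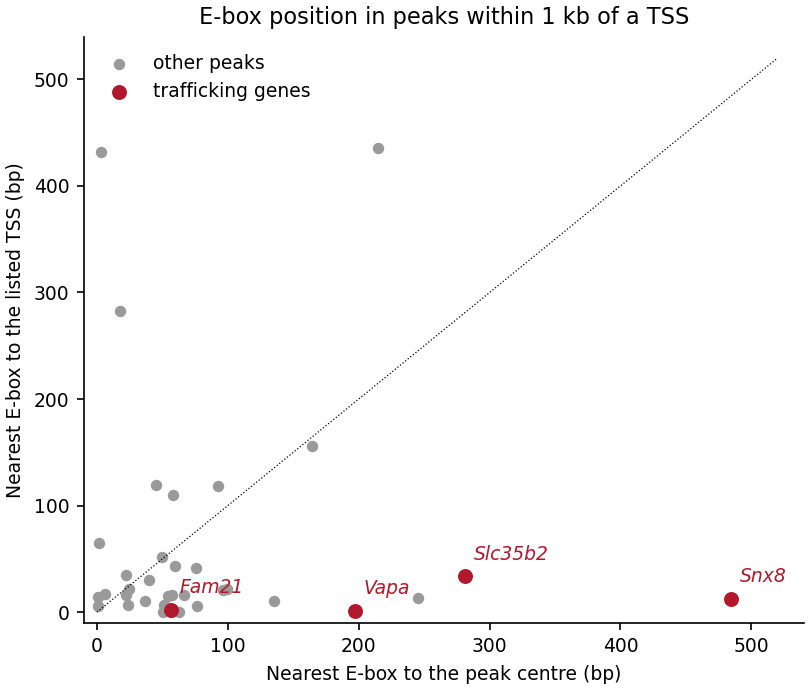
Distance in bp of the nearest E-box to the listed TSS (y axis) and to the peak centre (x axis) in the 36 peaks within 1 kb of a TSS that hold one, with the dotted line marking equal distances. All 4 trafficking genes and 20 of the 32 other peaks lie under the line. *Snx8* is furthest to the right at 484.5 bp from the centre and 12.5 bp from the TSS.

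Having an E-box did not set these genes apart from other TSS-near peaks. The 5 genes were chosen rather than drawn at random, so their share is given without an interval. All but the *Aagab* peak held an E-box, that is 4 of 5, and their sites added up to 7. The background, counted over the whole list, was 49.5% with an E-box (50 of 101). Of the other TSS-near peaks 32 of 33 held one, and of the other peaks further away 14 of 63. In windows of the same length and place at the TSS of 20987 to 20995 protein-coding genes, an E-box was present in 14.3% of windows like the *Fam21* peak, 22.9% like *Snx8*, 19.2% like *Slc35b2* and 11.9% like *Vapa*. At least 2 were present in 1.89%, 4.02% and 2.98% of the windows like *Fam21*, *Snx8* and *Slc35b2*. Windows of the length of the *Aagab* peak, laid end to end along chromosome 9, held an E-box in 6.22% of cases.

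The CLEAR element, through which TFEB binds promoters of lysosomal genes, is the palindrome of the half-site GTCAC and its reverse complement, and none of the 5 peaks held it without a mismatch, against 5 of the 101 peaks (4.95%). With at most 1 mismatch it was present in *Fam21* and *Slc35b2*, against 31 of 101 peaks (30.7%) and 22 of the other 33 near a TSS. Counting positions from 1 at its 5′ end, with the base of the element first, the sites of *Fam21* carry C10G (116208010 to 116208019) and G1A (116208026 to 116208035), and the second site of *Slc35b2* carries T2C. The E-boxes of *Snx8* and *Vapa* did not reach this similarity.

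Other promoter sequences were found at shares given here for the whole list. The extended E-box was present in 1 of the 5 peaks against 24.8% of the list, and CATGTG in 3 of the 5 against 58.4%. A CCAAT box was present in 3 of the 5 against 60.4% and a GC box, the binding sequence of SP1, in 4 of the 5 against 45.5%, while 32 of the other 33 TSS-near peaks held a GC box. CATGTG is common at any TSS, being present in 24.1%, 49.1% and 36.2% of the matched windows of *Fam21*, *Snx8* and *Slc35b2*.

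The longest words common to all 4 TSS-near peaks, on either strand, had 8 bases, and one of the 4 such words contained the E-box, CACGTGAC. This word was also present in 29 of the other 33 TSS-near peaks and in 8 of the 63 others, and in 3.35% to 5.05% of the matched windows. The 3 peaks near a TSS without the promoter class shared a single word of 10 bases, CCCACGTGAC. It was present in 9 of the 101 peaks, including 4 of the other 33 near a TSS, and in 0.467% to 0.648% of the windows like *Vapa*, *Slc35b2* and *Snx8*. Both words were chosen after the sequences were seen. In *Snx8* exon 1 and *Vapa* the longer word is read on the strand opposite to the gene.

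Other genes of the same pathways were mostly without a peak. A list of 152 genes covered the WASH complex, retromer and its partner CCC complex, sorting nexins and ER contact sites. It also covered solute carriers of the *Slc35* family with enzymes of PAPS metabolism, and clathrin with its adaptors, their kinases and assembly factors. The list includes the 5 genes described above because they have peaks. Of the other 147 genes, 1 was listed for a peak, the retromer subunit *Vps26a*, a share of 0.68% against 0.404% of all protein-coding genes (88 of 21774). A peak centre within 10 kb of a TSS was found for 2 of the 147 (1.36%) against 0.34% of all protein-coding genes (74), adding *Washc5*, which encodes the WASH subunit strumpellin. Apart from those named here, no gene of the list had a peak assigned or within 10 kb. The list holds 8 WASH complex genes, 19 retromer and CCC genes, 30 sorting nexins and 30 ER contact genes. Its other groups are 29 *Slc35* and PAPS genes and 36 clathrin and adaptor genes. The next gene of the list, *Snx32*, was 19046 bp from a peak centre and *Washc1* 34349 bp.

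The peaks at *Vps26a* and *Washc5* were both classed as promoter-TSS. The *Vps26a* peak (chr10:62486490-62487097) scored 9.305 (rank 33), with its centre 12 bp downstream of the TSS. The peak at *Washc5* (chr15:59373799-59374680) scored 11.005 (rank 27) and is listed for *Nsmce2*, a SUMO ligase gene on the other strand, while its centre was 52 bp upstream of the curated *Washc5* TSS. It cannot be assigned to one of these genes rather than the other. Their sites are shown because, unlike those of the 5 genes above, both peaks hold a CLEAR element without a mismatch.
Washc5, chr15:59374176-59374224, minus strand: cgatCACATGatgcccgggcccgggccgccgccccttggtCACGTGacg
Vps26a pair, chr10:62486744-62486773, minus strand: CACGTGcggctgatggcctacggtCACGTG
Vps26a upstream, chr10:62486972-62486997, minus strand: cacggctcgtCACGTGacaactagct
The *Washc5* E-box lies 5.5 bp downstream of its TSS. *Vps26a* has 3 E-boxes, the printed pair 34.5 and 58.5 bp downstream of the TSS and the third 179.5 bp upstream. Of these the last of the pair and the upstream one belong to complete CLEAR elements, and the first of the pair does not. The printed pair stops at its last E-box, so the end of that CLEAR element lies just beyond the stretch.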

How the data were processed

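Reads of 50 bp from 2 DDX5 ChIP and 2 input libraries, each made from 20 ng of DNA, were mapped by the authors to mm10 with Bowtie2 2.2.5 and filtered with SAMtools 1.3.1. Peaks were called in each ChIP library with HOMER using its histone parameters, and those common to both were annotated. The HOMER version is not given in the sources used here. The deposited list gives 1 peak score per common peak, made by the authors with HOMER; how the scores of both libraries were combined is not stated. Per the file headers, the listed positions and distances are in bp on mm10. Library depth is unknown and no replicate error could be computed.

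Entries were selected by gene name and matched by Entrez gene identifier to RefSeq on GRCm38.p6 (101 of 101 matched) and to GENCODE vM21. Listed TSSs were derived from the peak centre and the listed distance. Ranks run from the highest score. The E-box (CACGTG), the extended E-box (TCACGTGA), the related CATGTG, the CCAAT box and the GC box (GGGCGG) were searched for on both strands without mismatch, and the CLEAR element with at most 1; extended E-boxes, CLEAR sites and the common words overlap with CACGTG. Matched windows had the length and offset of each peak at 1 TSS per protein-coding gene, with all TSSs of these genes as an alternative. Searches were tested on simulated sequences. Intervals of the shares of windows are 95% Wilson intervals. The software comprised samtools 1.23.1, pysam 0.24.0 and Python 3.11.15 with matplotlib 3.10.9, pandas 2.3.3 and numpy 2.4.6.

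The 5 genes, the list of 152 genes and all motifs were chosen with earlier results of these data known. Named besides the 5 were genes with a TSS in their peaks or a transcript over the centre, flanking genes, genes next in score and genes of the list with a peak; *Snx32* and *Washc1* were named after their values were seen. No statistical test was made, since the peaks carry no replicate values.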

Additional observations from a re-analysis of the deposited data

How the results depend on the processing

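The number of the 5 peaks counted as lying at a TSS was 1 by the listed class, and 4 with the centre within 1 kb of the listed TSS or with a reference TSS inside the peak. The median rank of 24 among 101 peaks moved to 52 with the score per kb and to 15 among the peaks within 1 kb of a TSS. Single ranks moved by more than 1.5 times for *Snx8* (14 to 56) and *Slc35b2* (24 to 54), both per kb. An E-box was present in 4 of the 5 peaks and in 1 of them in the central 200 bp; the CLEAR element was present in 2 with at most 1 mismatch and in 0 without. Of the 152 trafficking genes, 6 were listed for a peak, 2 for a promoter peak and 3 for a peak with a score of at least 10. The other 4 alternatives to these counts moved them by less than 1.5 times. The shares of TSS windows with an E-box stayed within their intervals when all TSSs were used. All TSSs include those of the main windows (for *Fam21*, 25989 windows against 20990). Both sets thus share most windows, and their closeness was largely fixed in advance. No paired analysis was possible because the list holds 1 pooled value per peak and no value of a single library, and for the same reason no library could be left out. Which peaks a deeper library would add is unknown, so a gene without a peak is one not detectable in this list, not one shown to be unbound.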
